A study of Mus musculus with 8 samples.

Results

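The white adipocyte genes described here are 10 genes listed as markers of white fat cells, measured by poly(A) RNA-seq in whole mouse aortas. They are *Adipoq*, *Lep*, *Plin1*, *Cidec*, *Retn*, *Lipe*, *Fabp4*, *Lpl*, *Cfd* and *Pparg*. They were chosen by name among the 48607 assembled loci of the table, where 19 rows carried one of the names, and for each gene the row with the most counts over the 8 libraries was used. Both groups of mice lacked ApoE in the whole body and were fed a Western diet. The study compared ApoE-/- mice with littermate ApoE-/-NPRC-/- mice, which also lacked NPRC, the natriuretic peptide clearance receptor, through a CRISPR frameshift in the first exon of *Npr3* made on the C57BL/6 background. The study's methods describe the purchased ApoE-/- mice as male and do not state the sex of the littermate groups. Since the deletion was present in every tissue, the groups do not separate fat cells from other cells of the vessel.

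By title, 5 libraries were ApoE-/- and 3 were ApoE-/-NPRC-/-. The study's methods give 5 aortas in each group for RNA-seq, so the deposit holds fewer libraries than the study describes. GEO also holds a genotype entry for every sample. Title and entry agree for 4 libraries (ApoE-/- 1, 2 and 3, ApoE-/-NPRC-/- 3) and conflict for 4, since ApoE-/- 4 and 5 are entered with both deletions and ApoE-/-NPRC-/- 1 and 2 with the ApoE deletion alone. Groups were therefore formed by title, and every comparison was repeated by genotype entry, which also gave 5 and 3 libraries. *Npr3* itself did not settle the labels, with FPKM values (fragments normalised to transcript length and to library depth) of 0.62 to 1.69 by title in ApoE-/- and 1.13 to 1.39 in ApoE-/-NPRC-/-. The total count was between 62969165 and 86693276 per library. The labels number the libraries without naming the animals, so the p-values measure the spread between these libraries.

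White adipocytes store triglyceride in a lipid droplet and release hormones. Adiponectin (*Adipoq*), leptin (*Lep*), resistin (*Retn*, secreted by adipocytes in the mouse) and adipsin, also known as complement factor D (*Cfd*), are secreted proteins. Perilipin 1 (*Plin1*) coats the droplet and CIDEC promotes its growth, while hormone-sensitive lipase (*Lipe*) breaks down stored diglyceride. Lipoprotein lipase (*Lpl*) frees fatty acids from circulating lipoproteins, and FABP4 carries fatty acids inside the cell. PPARγ (*Pparg*) is the nuclear receptor required for adipocyte differentiation. The aorta is surrounded by perivascular fat, which in mice has features of brown fat around the chest part. *Fabp4*, *Lpl* and *Pparg* are not restricted to adipocytes, as macrophages express all of them and capillary endothelium expresses *Fabp4*.

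The stretches of 150 bases before the start sites of *Adipoq*, *Lep* and *Pparg* are shown because *Adipoq* kept close to the level that the fat genes shared in each library, whereas *Lep* and *Pparg* kept wider ranges of their own. *Retn* and *Cfd*, which also kept wider ranges, are not shown. They are RefSeq sequences of the mouse build GRCm38.p6, all on the plus strand, and the *Pparg* stretch lies before the start site at 115422066, the most downstream of the 3 listed for this gene. Capitals mark matches to CCAAT, TTGCGCAA (a C/EBP site), AGGTCA (a nuclear receptor motif) or TATAAA on either strand.
Adipoq, chr16:23146386-23146535: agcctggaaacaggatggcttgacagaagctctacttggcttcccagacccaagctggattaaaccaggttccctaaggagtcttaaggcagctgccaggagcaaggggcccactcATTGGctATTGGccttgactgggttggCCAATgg
Lep, chr6:29060071-29060220: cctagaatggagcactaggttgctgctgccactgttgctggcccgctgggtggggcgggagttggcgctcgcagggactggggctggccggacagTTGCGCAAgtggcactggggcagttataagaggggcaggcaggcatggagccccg
Pparg, chr6:115421916-115422065: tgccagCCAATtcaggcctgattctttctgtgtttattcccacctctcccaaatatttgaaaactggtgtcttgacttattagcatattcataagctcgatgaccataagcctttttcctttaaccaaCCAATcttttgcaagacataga
In windows that ran from 250 bases before to 50 bases after a start site, 8 of the 10 genes had at least 1 window, with 12 windows in all. The TTGCGCAA match of *Lep* lay from -55 to -48 relative to its start site, and 60 of all 32851 windows held this motif (0.183%). *Adipoq* had 3 CCAAT matches within the last 34 bases before its start site, a motif found in 37.4% of all windows. The *Pparg* windows not shown held AGGTCA, from -28 to -23 at the start site 115361144 and from -9 to -4 at 115362349. The latter window also held TATAAA on the minus strand, from -29 to -24. AGGTCA was found in 16.3% and TATAAA in 13.6% of all windows. AGGTCA repeated in the same direction with 1 base between was found in 0.04% of them and in 0 of the 12 windows of these genes. The search covered both strands, and each such repeat also contains the AGGTCA motif. A match describes the letters of the window and does not show binding.

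To examine whether the fat genes of the aorta differed with NPRC deletion, the libraries were compared by title with edgeR's quasi-likelihood test. The study's criterion for a changed gene was a fold change over 2 or under 0.5 at an unadjusted p-value less than 0.05. Of the 9 genes that reached the minimum of 1 FPKM in 3 or more libraries, 0 met it by title and 0 by genotype entry. By either label, 0 of them had such an unadjusted p-value, with edgeR or with DESeq2. Over all 20506 tested loci, 3.47% met the criterion by title and 0.463% by genotype entry. The smallest p-value of a member was 0.183 by title (*Cfd*) and 0.139 by genotype entry (*Pparg*). The adjusted p-values (Benjamini-Hochberg over all tested loci) were 0.539 to 0.985 by title and 1 by genotype entry. Of all tested loci, 0 had an edgeR adjusted p under 0.05 by either label, and the smallest by title was 0.0525. The median log2 fold change of the tested genes was 0.03 by title and -0.11 by genotype entry, beside -0.01 and 0.00 over all tested loci. For none of the 10 genes did the FPKM values of the groups separate without overlap by either label, which 7.25% of the tested loci did by title and 0.97% by genotype entry. In bulk aorta, fewer fat cells and less RNA per fat cell cannot be told apart.

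**Figure D1:**
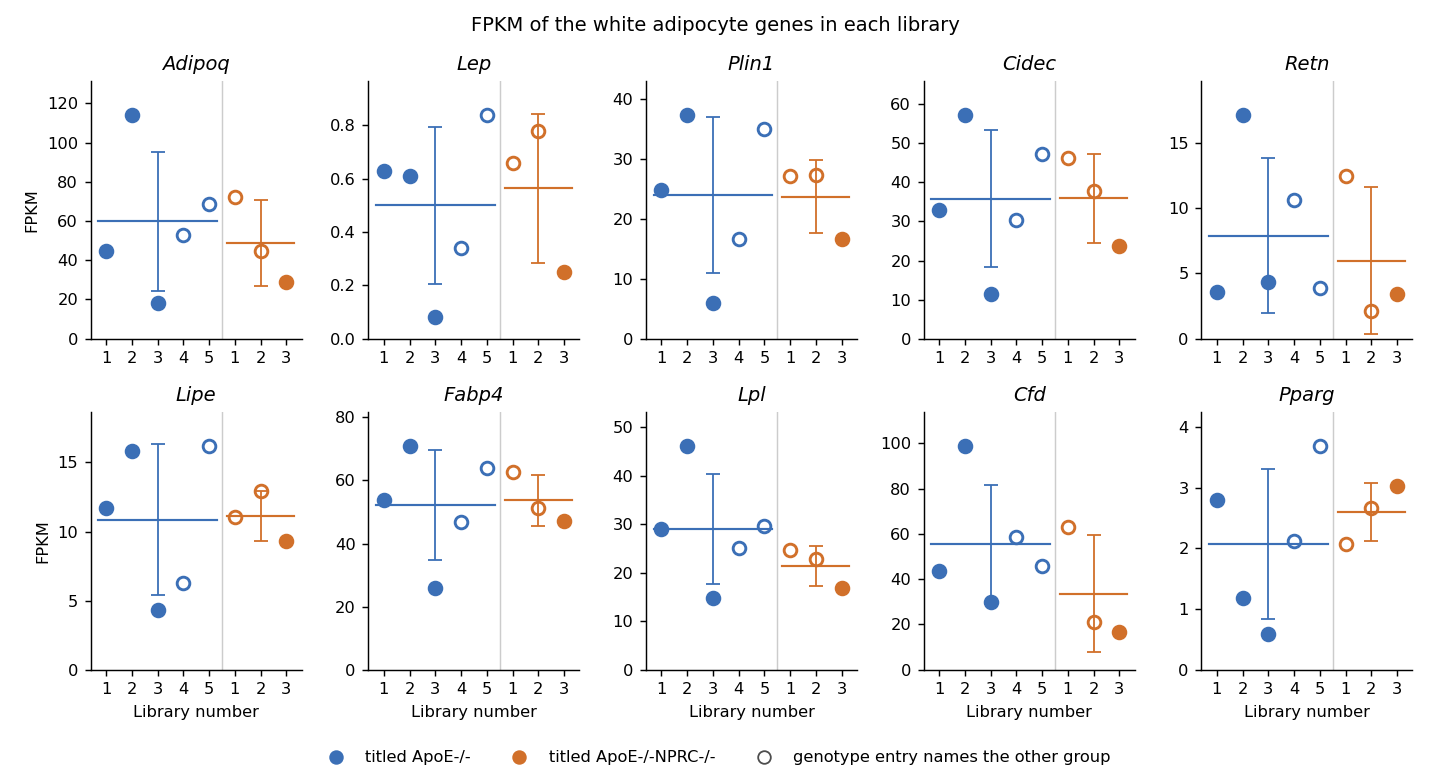
FPKM of each of the 10 genes (vertical axes from 0) in the 8 libraries, numbered as in their titles. Filled circles are libraries whose title and genotype entry name the same genotype and open circles those that conflict, horizontal lines are titled group means and error bars SD (n = 5 and n = 3). The groups overlap in every panel, and the library titled ApoE-/- 3 is the lowest in 8 of the 10 panels.

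Among the secreted proteins, *Adipoq* measured 44.9, 114, 18.2, 53.0 and 68.5 FPKM in ApoE-/- 1 to 5 (by title), against 72.3, 44.9 and 28.9 FPKM in ApoE-/-NPRC-/- 1 to 3. The highest and the lowest library were both titled ApoE-/-, and all 3 of the others lay between them. The means were 59.7 ± 35.5 (SD, n = 5) and 48.7 ± 21.9 (n = 3), and the log2 fold change was -0.27 (SE 0.49, edgeR adjusted p = 0.833), with a 95% confidence interval from -1.37 to 0.84.

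*Lep* measured 0.63, 0.61, 0.08, 0.34 and 0.84 FPKM in the libraries titled ApoE-/-, and 0.66, 0.78 and 0.25 in those titled ApoE-/-NPRC-/-. No library reached the minimum of 1 FPKM, although 92 to 931 counts were assigned to the gene. The deposited values imply that these counts were divided by 14396 bases, beside 3259 of the longest annotated transcript. Without that minimum, the log2 fold change was 0.22 (SE 0.58) by title and -0.19 (SE 0.59) by genotype entry, with edgeR adjusted p-values of 0.907 and 1.

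*Retn* measured 3.57, 17.2, 4.33, 10.6 and 3.85 FPKM in the libraries titled ApoE-/-, and 12.4, 2.12 and 3.39 in those titled ApoE-/-NPRC-/-. The libraries titled ApoE-/- 2 and 4 and ApoE-/-NPRC-/- 1 were more than 2-fold above all the rest, so high and low values occurred in both titled groups. Its log2 fold change of -0.40 had the largest standard error of the 10 genes (0.70, edgeR adjusted p = 0.824).

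*Cfd* measured 43.4, 98.9, 29.9, 58.6 and 45.8 FPKM in the libraries titled ApoE-/-, and 63.2, 21.2 and 16.5 in those titled ApoE-/-NPRC-/-. The libraries titled ApoE-/-NPRC-/- 2 and 3 were the lowest of the 8, whereas ApoE-/-NPRC-/- 1 was the second highest. The log2 fold change was -0.71 (SE 0.49, edgeR adjusted p = 0.539) with an interval from -1.81 to 0.40, and by genotype entry it was -0.31. Without the library titled ApoE-/-NPRC-/- 1, whose genotype entry is ApoE-/-, it was -1.51 (unadjusted p = 0.00771, edgeR adjusted p = 0.110), and *Cfd* then met the criterion. With all 8 libraries 3.47% of the tested loci met the criterion by title, and the share without that library is not given here. The assembled locus of *Cfd* spans 58503 bases of chromosome 10 (79836394 to 79894896, plus strand), beside 1803 bases of the annotated gene. It also covers *Ptbp1*, *Prtn3* and *Elane* on the same strand, and reads of these genes cannot be told apart from those of *Cfd*.

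Of the droplet and lipolysis genes, *Plin1* measured 24.8, 37.3, 5.98, 16.6 and 34.9 FPKM in the libraries titled ApoE-/-, and 27.1, 27.3 and 16.6 in those titled ApoE-/-NPRC-/-. *Cidec* measured 33.0, 57.3, 11.5, 30.3 and 47.2 FPKM in the former and 46.2, 37.9 and 23.8 in the latter. For *Lipe* the values were 11.7, 15.9, 4.31, 6.30 and 16.2 FPKM, and 11.1, 12.9 and 9.35. All 3 genes were lowest in the library titled ApoE-/- 3, and their group means by title differed by far less than the SD (*Plin1* 23.9 ± 13 and 23.7 ± 6.10, *Cidec* 35.9 ± 17.5 and 35.9 ± 11.4, *Lipe* 10.9 ± 5.43 and 11.1 ± 1.79). The log2 fold changes by title were 0.03, 0.04 and 0.08, and turned to -0.09, -0.11 and -0.05 by genotype entry. By title the interval of *Cidec* ran from 0.540-fold to 1.96-fold, so a 2-fold change in either direction lay just outside it. By genotype entry it ran from 0.481-fold to 1.78-fold, which includes a 2-fold decrease.

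Of the genes of fatty acid handling, *Fabp4* measured 53.7, 71.0, 26.0, 46.7 and 63.9 FPKM in the libraries titled ApoE-/-, and 62.8, 51.3 and 47.3 in those titled ApoE-/-NPRC-/-. It had the narrowest interval of the 10 genes, from 0.702-fold to 1.58-fold by title. *Lpl* measured 29.1, 46.1, 14.8, 25.1 and 29.6 FPKM in the former and 24.6, 22.8 and 16.7 in the latter. Its log2 fold change of -0.40 (SE 0.29, edgeR adjusted p = 0.558) became -0.56 without the library titled ApoE-/- 3, with an unadjusted p of 0.0443 and an edgeR adjusted p of 0.487. With all 8 libraries 7.13% of the tested loci were lower by title at an unadjusted p under 0.05. The share without ApoE-/- 3 is not given here. The assembled loci of both genes reach past the annotated genes, over 18777 bases beside 4489 for *Fabp4* and 75451 beside 26958 for *Lpl*.

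*Pparg* measured 2.79, 1.18, 0.59, 2.12 and 3.69 FPKM in the libraries titled ApoE-/-, and 2.08, 2.67 and 3.03 in those titled ApoE-/-NPRC-/-. Unlike the other members, it was low in the library titled ApoE-/- 2 as well as in ApoE-/- 3. The log2 fold change was 0.38 (SE 0.47, edgeR adjusted p = 0.748) by title and 0.70 (SE 0.43, edgeR adjusted p = 1) by genotype entry. Over the 4 libraries whose labels agree, 3 against 1, the difference in log2 CPM was 1.36, a value without a test.

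**Figure D2:**
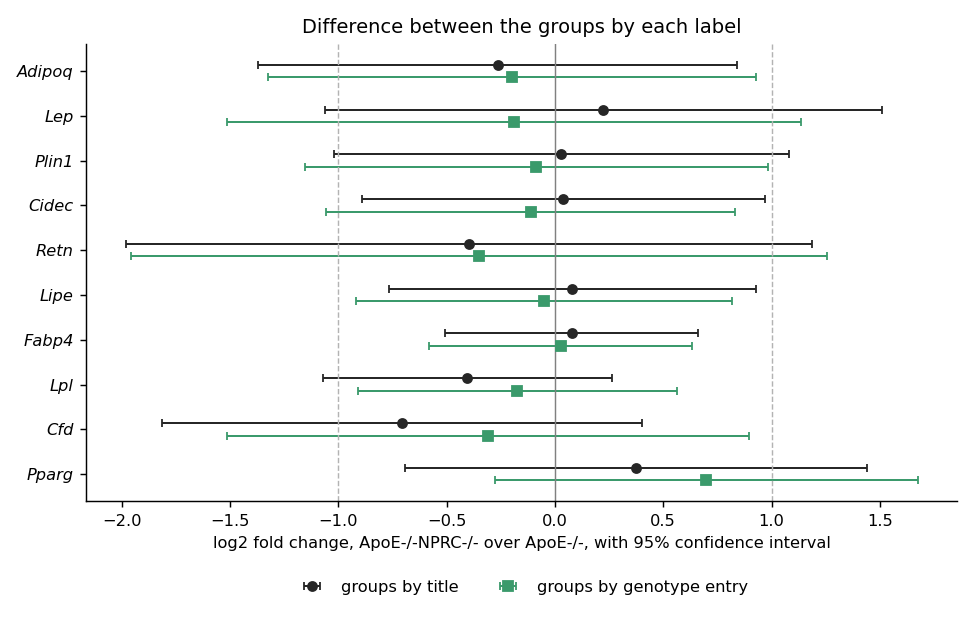
Log2 fold change of each gene (horizontal axis, ApoE-/-NPRC-/- over ApoE-/-) with its 95% confidence interval from edgeR, with groups by title (black circles) and by genotype entry (green squares). Dashed lines mark a 2-fold difference, *Lep* comes from the fit without a minimum, and every interval includes 0.

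The spread between libraries was wider than the difference between groups. After scaling by TMM, the geometric mean of the 10 genes was 39.4 CPM (counts scaled to library size) in the library titled ApoE-/- 3 and 145 in ApoE-/- 2, a 3.68-fold range within 1 titled group. The range within the libraries titled ApoE-/-NPRC-/- was 1.72-fold, and without ApoE-/- 3 the range over the other 7 libraries was 2.11-fold. Between the highest and the lowest library, single genes ranged from 2.47-fold (*Fabp4*) to 9.51-fold (*Lep*) in scaled CPM, while the median over all tested loci was 1.97-fold. A range at least as wide as that of *Plin1* (5.63-fold) was found in 7.95% of the tested loci, and one as wide as that of *Fabp4* in 32.9%. In FPKM, ApoE-/- 3 was the lowest library for 8 genes, all but *Retn* and *Cfd*. ApoE-/- 2 was the highest for 7 genes, all but *Lep*, *Lipe* and *Pparg*, which were highest in ApoE-/- 5. Over all tested loci, ApoE-/- 3 was the lowest for 18.6% and ApoE-/- 2 the highest for 15.8%.

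**Figure D3:**
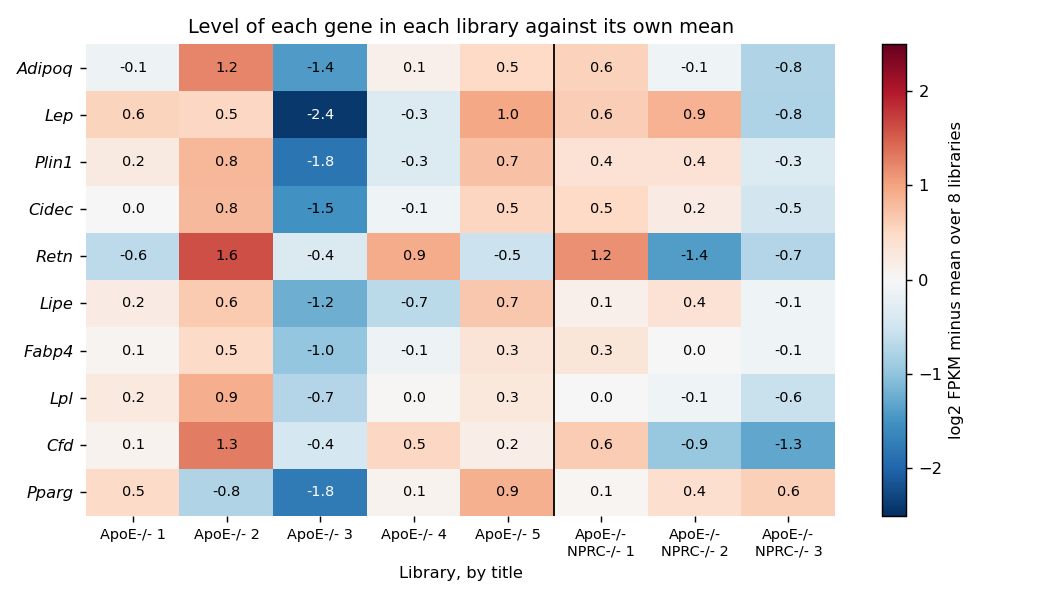
Log2 FPKM of each gene (rows) in each library (columns, by title) minus the mean of that gene over the 8 libraries. Red is above and blue below the mean. The column of ApoE-/- 3 is below the mean for all 10 genes, whereas ApoE-/- 2 is above it for all but *Pparg*.

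To describe how far the genes moved together, each gene was divided by the geometric mean of the other 9 in the same library. The range of *Cidec* over the 8 libraries then narrowed from 4.51-fold to 1.45-fold, that of *Adipoq* from 5.69-fold to 1.82-fold, and that of *Plin1* from 5.63-fold to 2.08-fold. *Fabp4* narrowed to 1.61-fold, *Lpl* to 2.11-fold and *Lipe* to 2.30-fold. The droplet proteins kept close proportions, as the FPKM of *Cidec* was 1.33 to 1.92 times that of *Plin1* in every library.

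*Retn*, *Cfd*, *Lep* and *Pparg* kept wider ranges, of 5.76-fold, 3.80-fold, 4.98-fold and 7.20-fold. *Retn* and *Cfd* were high in relation to *Adipoq* in the library titled ApoE-/- 3 and low in ApoE-/-NPRC-/- 2. There the FPKM of *Cfd* was 1.65 and 0.472 times that of *Adipoq*, and that of *Retn* 0.239 and 0.0472 times. *Lep* lay further below its other libraries than the rest of the genes did in ApoE-/- 3, where its ratio to *Plin1* was the lowest of the 8 libraries (0.0134, against 0.0150 to 0.0286). *Pparg* was the gene whose range widened, from 5.45-fold. Its ratio to *Adipoq* ran from 0.0103 in ApoE-/- 2 to 0.105 in ApoE-/-NPRC-/- 3. The titled groups overlapped in each of these ratios.

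**Figure D4:**
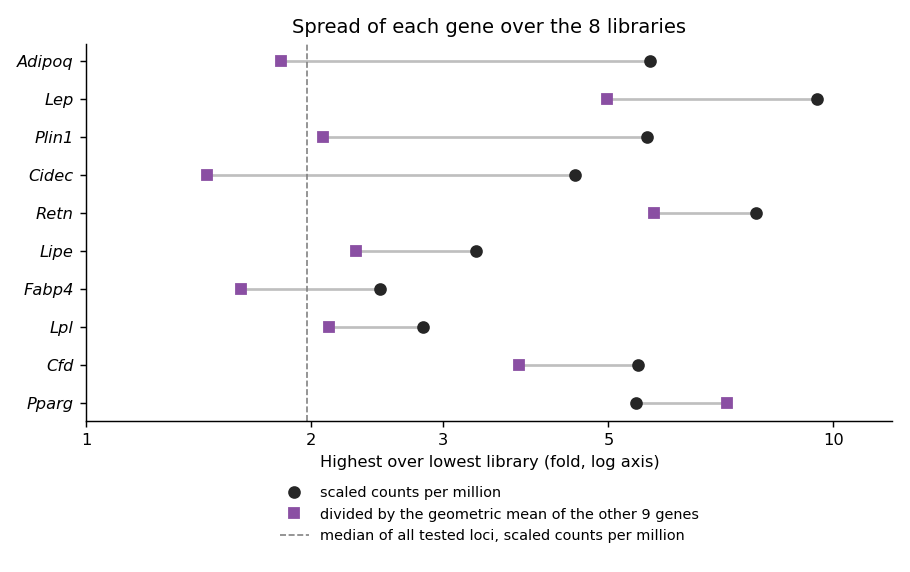
Highest over lowest of the 8 libraries for each gene (horizontal axis, fold on a log scale) in scaled CPM (circles) and after division by the geometric mean of the other 9 genes (squares). The dashed line is the median of all tested loci in scaled CPM (1.97-fold). Division brings *Adipoq*, *Cidec* and *Fabp4* below that line, and leaves *Lep*, *Retn*, *Cfd* and *Pparg* well above it. The line refers to undivided values and is therefore no baseline for the squares.

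The *Pparg* name was also carried by rows on the opposite strand, which lie inside the gene on chromosome 6 from 115366117 to 115381463 and from 115410183 to 115419319. They measured 0.98 to 3.89 and 1.16 to 5.37 FPKM. In the library titled ApoE-/- 2 they stood at 3.72 and 3.55 FPKM, above the 1.18 FPKM of the *Pparg* row. Their share of the counts of both strands was 58.3% in that library and 24.5% to 46.7% in the other 7. Divided by the geometric mean of the other 9 genes, these opposite-strand rows had a range of 2.09-fold, and all rows of the name together 3.98-fold. These rows were looked at after the values of *Pparg* were seen. Whether the counting used strand is not given in the sources used here, so reads of the strands may not be separated, and their part in the *Pparg* values was not tested.

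How high a gene stood against another depended on the length used. The deposited count and FPKM of a locus imply the length by which its counts were divided. That length was 1658 bases for *Adipoq*, whose longest annotated transcript has 1292, but 14396 bases for *Lep* (longest transcript 3259) and 65087 bases for *Pparg* (longest transcript 2125). For *Lipe*, *Lpl* and *Cfd* it was 4.71, 4.91 and 4.08 times the longest annotated transcript. In median FPKM over the 8 libraries *Fabp4* stood highest (52.5), followed by *Adipoq* (48.9), *Cfd* (44.6), *Cidec* (35.4), *Plin1* (26.0), *Lpl* (24.9), *Lipe* (11.4), *Retn* (4.09), *Pparg* (2.40) and *Lep* (0.62). Neighbours in this order often changed places, since *Fabp4* was above *Adipoq* in 4 of 8 libraries, while *Cidec* was above *Plin1* in all 8. In CPM per kilobase of the longest annotated transcript, *Cfd* stood highest (183), *Pparg* was the third highest (73.5) and *Lep* stayed lowest (2.76). These counts cover the whole assembled locus, of 58503 bases for *Cfd* and 129449 for *Pparg*. Neither order therefore gives the level of the transcripts alone. Comparisons of a gene between libraries use the same locus and are not affected by the length used.

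Other genes of fat were examined as fixed lists, which include the 10 genes where they belong. Over all tested loci, at an unadjusted p under 0.05, 7.13% stood lower with the ApoE-/-NPRC-/- title and 6.51% stood higher, and 1.31% differed in either direction by genotype entry. No gene of any list had an edgeR adjusted p under 0.05 by title, and none had an unadjusted p under 0.05 by genotype entry. Of all 20506 tested loci, 0 had an edgeR adjusted p under 0.05 by either label.

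Of 15 tested genes of the secreted proteins of fat, 2 were lower and 1 was higher at that unadjusted p, with a median log2 fold change of -0.33 by title and -0.04 by genotype entry. The WNT inhibitor *Sfrp5* was 3.92 ± 1.02 FPKM in the libraries titled ApoE-/- and 1.42 ± 0.287 in the others (log2 fold change -1.46, edgeR adjusted p = 0.203), and the complement component *C3* was 335 ± 85.5 and 184 ± 17.0 (-0.85, edgeR adjusted p = 0.267). *Rbp4*, the retinol carrier, was 21.9 ± 3.69 and 34.3 ± 0.524 FPKM (0.67, edgeR adjusted p = 0.224). The titled groups did not overlap for these 3 genes, which were named for their unadjusted p by title. Over all tested loci, 7.25% had no overlap by title. By genotype entry the log2 fold changes of the 3 genes were 0.07, -0.33 and 0.07.

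Of 15 tested genes of the lipid droplet and lipolysis and 23 of fatty acid uptake and triglyceride synthesis, 0 passed in either direction, with medians of 0.04 and 0.32 by title, and of -0.08 and -0.01 by genotype entry. *Pnpla2*, the lipase that starts triglyceride breakdown, was 34.6 ± 15.9 and 34.6 ± 12.04 FPKM, in a row shared with *Cracr2b*. The desaturase *Scd1* was 1528 ± 767 and 1555 ± 374 FPKM. Of 16 transcription factors and cofactors, *Nr1h3*, which encodes the oxysterol receptor LXRα, was lower (-0.47, edgeR adjusted p = 0.306, in a row shared with *Madd*) and *Klf15* was higher (0.41, edgeR adjusted p = 0.353, in a row shared with *Gm44421*), with a median of 0.27 by title and -0.01 by genotype entry. Of 17 receptors and signalling genes, 2 were higher, with a median of 0.10 by title and -0.14 by genotype entry. These were *Npr1*, the guanylyl cyclase receptor of natriuretic peptides (13.5 ± 2.17 and 20.3 ± 2.69 FPKM, 0.62, edgeR adjusted p = 0.255), and the insulin receptor *Insr* (11.6 ± 1.04 and 14.02 ± 0.174 FPKM, 0.31, edgeR adjusted p = 0.309).

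The library titled ApoE-/- 3 was also the lowest of the 8 for 18 of 21 tested genes of fatty acid uptake and triglyceride synthesis outside the 10 members, and for 6 of 12 of the lipid droplet list. Over all tested loci it was the lowest for 18.6%. It was the lowest for 1 of 12 secreted proteins and for 4 of 15 transcription factors.

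By the highest correlation with the mean standardised log2 CPM of the 10 genes over the 8 libraries, similar loci were *Mrap* (Pearson's r = 0.984), *Adipor2* (0.977), *Hibch* (0.973) and *Gm47167* (0.965). They were followed by *Cd36* (0.963), *Acvr1c* (0.963), *Nkrf* (0.962), *Tmem70* (0.959) and *Dld* (0.959). These 9 loci were lowest in ApoE-/- 3, and 8 of them were highest in ApoE-/- 2, all but *Acvr1c*. Since they were picked by likeness to the members, sharing these libraries is not a separate result. The fatty acid transporter *Cd36* ran from 41.8 to 115 FPKM and the adiponectin receptor *Adipor2* from 2.19 to 8.82. The correlations are over 8 libraries whose depth and composition are shared with the members, and they carry no p-value, since the loci were picked by them.

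Marker lists of other cells were set beside the fat genes. Of 12 brown adipocyte markers 10 were tested and 0 passed by title, with a median log2 fold change of 0.39, which was -0.16 by genotype entry. Their summed level ran from 147 to 688 FPKM by title in ApoE-/- and from 411 to 664 in ApoE-/-NPRC-/-, and it too was lowest in ApoE-/- 3, where 8 of the 10 tested markers had their lowest value. *Ucp1*, the uncoupling protein that defines brown fat, was 250, 309, 71.8, 142 and 319 FPKM in the former and 331, 343 and 189 in the latter. *Zic1* and *Lhx8*, markers of brown fat elsewhere in the body, were below 1 FPKM in every library. The parts of white and of brown fat cells in the values of the 10 genes were not tested.

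Some markers of smooth muscle, macrophages and fibroblasts had an unadjusted p under 0.05 by title. Of 10 smooth muscle markers, 9 were higher in the libraries titled ApoE-/-NPRC-/-, with a median of 0.64 (0.12 by genotype entry), and their summed level was 1773 to 3030 FPKM against 1371 to 1827. Of 10 macrophage markers 3 were lower, with a median of -0.97 (-0.17 by genotype entry) and a summed level of 302 to 992 FPKM against 615 to 1873. Of 12 tested markers of adipocyte progenitors and fibroblasts 5 were lower, with a median of -0.77 (-0.10 by genotype entry) and a summed level of 450 to 1117 FPKM against 794 to 1977. In ApoE-/- 3, where the fat genes were lowest, the macrophage list stood at 1751 FPKM and the progenitor and fibroblast list at 1977, the highest of the 8 libraries for the latter. The part of these cells in the values of *Fabp4*, *Lpl* and *Pparg* was not tested. Of 10 endothelial markers, 1 was higher (*Erg*, 0.48, edgeR adjusted p = 0.364), the median was -0.10 (-0.02 by genotype entry), and the summed level varied little, from 100 to 119 FPKM over the 8 libraries. The remaining lists were sparse, with 1 of 8 lymphocyte, 4 of 8 skeletal muscle and 3 of 8 cardiomyocyte markers tested. Among these, *Cd4* was lower and *Ryr2* (0.89) higher at that unadjusted p. The other tested cardiomyocyte markers had negative log2 fold changes by title without reaching that p (*Actc1* -1.29, *Myh6* -2.09). The median of the cardiomyocyte list was -1.29 by title and -1.50 by genotype entry, and that of skeletal muscle 0.99 and 0.04.

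**Figure D5:**
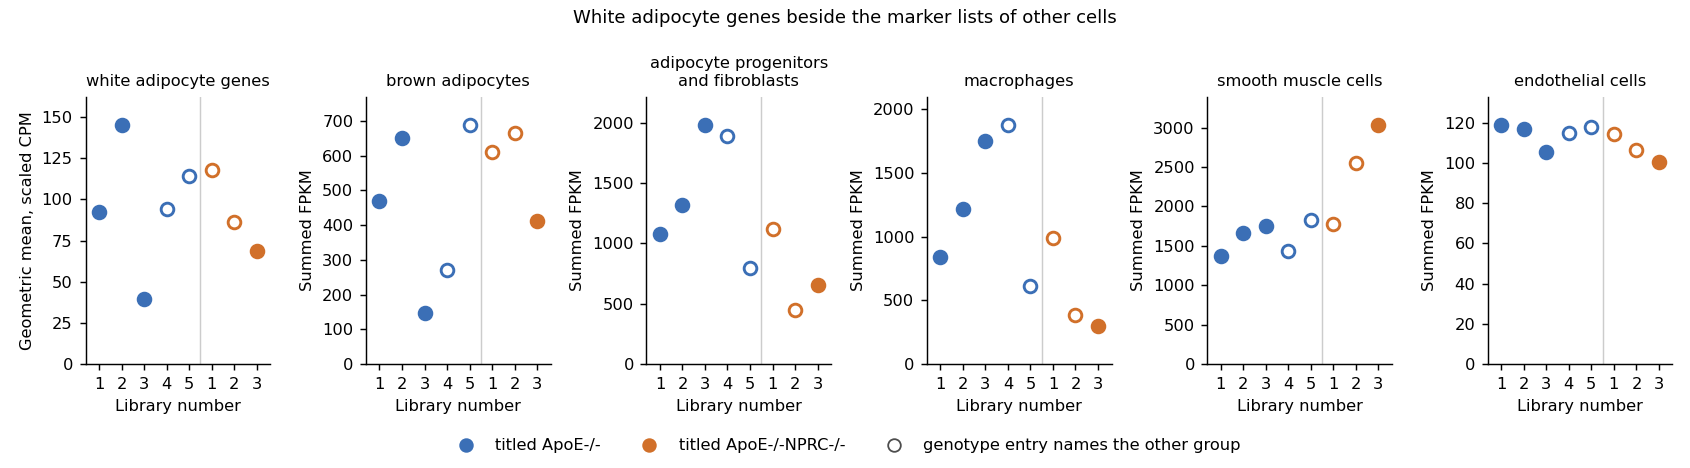
Geometric mean of the 10 white adipocyte genes (left, scaled CPM) and summed FPKM of the markers of 5 other cell types in the 8 libraries, numbered as in their titles (open circles, title and genotype entry conflict). The brown adipocyte list is lowest in the same library as the white adipocyte genes (ApoE-/- 3), where the progenitor and fibroblast list is highest.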

How the data were processed

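Poly(A) RNA of whole aortas was sequenced with a strand-marking (dUTP) protocol. Per the submitters' processing notes, FastQC and cutadapt 1.9 were used with the build GRCm38, and per the study's methods the authors mapped the reads with HISAT2 and assembled them with StringTie. The authors deposited a raw count and an FPKM value, normalised to transcript length and mapped fragments, for 48607 loci in 8 libraries. The counter, its strand setting and the annotation release are not given in the sources used here. Annotations are those of GENCODE M21. Rows without a gene name held 0.61% of the counts.

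The counts of the 20506 loci that reached 1 FPKM in 3 or more libraries were compared with edgeR 4.0.16 (R 4.3.3), TMM scaling, the quasi-likelihood test and Benjamini-Hochberg adjustment. The biological coefficient of variation was 0.327, and the number of libraries limits the precision. The test was tested on simulated data with known changes. Log2 CPM used a prior count of 2. Alternatives covered the label, DESeq2 1.42.0, limma 3.58.1 on log2(FPKM + 1) and log2(FPKM + 0.1), scaling, filters, rows of a name, the replicate number and each library left out.

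The members and the 13 gene lists were chosen with earlier results of these data known. Named genes are the 10 members and *Npr3*, up to 4 genes per list with the largest fold change among those with an unadjusted p-value under 0.05 by title (the 2 most expressed where fewer than 2 passed), and the 10 loci most correlated with the members, of which 1 is not reported here. The genes lying in the assembled *Cfd* locus and the names sharing a row are named as well, and so are list markers below 1 FPKM.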

Additional observations from a re-analysis of the deposited data

Results flagged for a closer look

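Each gene was examined for a library far from the others in the groups of 5 libraries, by title and by genotype entry, which gave 20 groups. In 3 of them the gap between the lowest library and the next exceeded Dixon's critical value, where chance gives about 1 in 20. All 3 were the library titled ApoE-/- 3 in the ApoE-/- group by genotype entry, at a log2 CPM of 0.32 for *Lep*, 5.37 for *Plin1* and 6.36 for *Lipe*. The 3 genes share this library, so they do not count as separate events, and by title no group exceeded that value.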

How the results depend on the processing

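The count of 0 changed members by title was found in 18 of 19 alternatives with a test and became 1 (*Cfd*) without the library titled ApoE-/-NPRC-/- 1, so that leaving out each library in turn gave 0 to 1. The share of all loci that met the criterion in that fit is not given here. The median log2 fold change of the members lay between -0.21 and 0.23 by title and between -0.35 and 0.11 by genotype entry. Of 290 values of single genes under an alternative, 37 from alternatives with a test changed sign, and no member had an adjusted p below 0.110. With groups by genotype entry in place of the title, *Plin1* (-0.086), *Cidec* (-0.111) and *Lipe* (-0.0512) changed sign. In limma on log2(FPKM + 1) by genotype entry *Plin1* did (0.0029). Leaving out each library in turn (named by title) gave -0.64 to 0.0933 for *Adipoq* by title, -0.21 to 0.24 for *Plin1*, -0.18 to 0.26 for *Cidec*, -1.46 to 0.0675 for *Retn*, -0.11 to 0.25 for *Lipe*, -0.0827 to 0.20 for *Fabp4* and -1.51 to -0.38 for *Cfd*. By genotype entry it gave -0.42 to 0.18 for *Adipoq*, -0.45 to 0.11 for *Plin1*, -0.36 to 0.0907 for *Cidec*, -1.11 to 0.13 for *Retn*, -0.41 to 0.20 for *Lipe*, -0.13 to 0.15 for *Fabp4*, -0.31 to 0.0838 for *Lpl* and -0.74 to 0.056 for *Cfd*. The sign changes by title came without ApoE-/- 2 (*Adipoq*, *Retn*), ApoE-/- 3 (*Plin1*, *Cidec*, *Lipe*, *Fabp4*), ApoE-/- 4 (*Plin1*, *Lipe*), ApoE-/-NPRC-/- 1 (*Plin1*, *Cidec*, *Fabp4*) and ApoE-/-NPRC-/- 2 (*Plin1*, *Retn*, *Lipe*), and the cause was not tested. Over the 4 libraries whose labels agree, *Cfd* (-1.53) and *Pparg* (1.36) moved by more than the SD of the libraries. There *Lep* (-0.206), *Plin1* (-0.0053) and *Cidec* (-0.146) also had the opposite sign to their values by title, without a test. Same-numbered libraries did not deviate together (correlations of -0.314, -0.113 and 0.007), so the numbers were not taken as pairs. With a replicate block over the 6 libraries numbered 1 to 3, 0 members were changed, the median was 0.23 (0.11 without the block), *Adipoq* was 0.049, and *Pparg* was 1.07 (0.83 without the block, and 0.38 by title over all 8 libraries). The intervals of *Lep*, *Plin1* and *Retn* by title include a 2-fold change in both directions, which is the precision that 8 libraries gave.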
